A study of Mus musculus with 6 samples.

Results

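The respiratory chain genes described here mostly encode nuclear subunits of complex III (ubiquinol-cytochrome c reductase), complex IV (cytochrome c oxidase) and ATP synthase, together with cytochrome c. Atp5s and Atp5sl, which are not subunits, and the supercomplex factor Cox7a2l are included by name. All genes were taken from the gene table by name: every symbol that begins with Uqcr, with Cox4 to Cox8 or with Atp5, plus Cyc1 and Cycs. This gave 45 of 21878 genes, of which 9 belong to complex III, 1 is cytochrome c, 18 belong to complex IV and 17 carry an ATP synthase name. Of the 45, 43 had enough counts to be tested. The testis forms Cox7b2, with 1 count in HO 2 and 0 in the other 5 libraries, and Cox8c, with 0 in all 6 libraries, did not. A count of 0 allows up to 0.0957 to 0.125 CPM (counts scaled by library size) across the libraries.

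Complex III passes electrons from ubiquinol to cytochrome c, complex IV passes them on to oxygen, and both pump protons across the inner mitochondrial membrane. ATP synthase lets the protons back through a rotating ring and uses the energy to make ATP. A few core subunits of these enzymes are encoded by the mitochondrial genome, which is not analysed here. Several complex IV subunits exist as a form made in most tissues and a form made mainly in heart and skeletal muscle: Cox6a1 and Cox6a2, Cox7a2 and Cox7a1, Cox8a and Cox8b.

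Total RNA was sequenced from mouse soft tissue at the Achilles tendon in 6 libraries. The 3 HO libraries came from animals whose Achilles tendon had been amputated, an injury after which bone forms in soft tissue (heterotopic ossification), and the 3 Control libraries came from sham-operated animals. Strain, age and time after surgery are not given in the labels, nor whether libraries stand for separate animals, so the p-values reflect how these 6 libraries vary, which could be technical. The series title places the comparison in a study of mitochondrial dysfunction in this ossification.

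Library totals ran from 28410231 to 31346730 counts in HO and from 23916839 to 27140226 in Control. Tendon markers were present in every library, with a summed level of at least 63538 CPM in each HO library and of 7923 to 18932 CPM in Control. Skeletal muscle genes were present as well. A list of 35 of them held 1.77% of all counts in HO 1, 0.564% in HO 2 and 17.0% in HO 3, against 21.1%, 20.6% and 23.0% in Control 1 to 3. HO 3 therefore stood apart from HO 1 and HO 2: its chi-square distance per gene was 502.5 and 701.4 to HO 1 and HO 2, and 259.2 to 305.4 to the Controls. Fold changes of the named genes and counts of calls are therefore also given without HO 3. This library was singled out from these same data and is the HO library nearest to Control. The p-values without HO 3 therefore do not carry the spread among all HO libraries and describe HO 1 and HO 2 alone. In bulk tissue, fewer muscle cells and less of an RNA per cell cannot be told apart.

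Promoters are shown for Cox7a1 and Cox8b, among the 3 genes furthest below Control in HO 1 and HO 2, and for the ubiquitous forms Cox7a2, Cox8a and Cox6a1. Each window runs from 250 bases before to 50 bases after the gene's start, on the gene's strand, from RefSeq on GRCm38.p6, and 35 of the 45 genes have a window in that table. Capitals mark matches to short motifs, searched on both strands. For nuclear respiratory factor 1 (NRF1) the letters were GCATGCGC. For ETS family factors such as GABPA, which also act on respiratory genes, they were CCGGAAG. The general factor SP1 was searched as GGGCGG in the same windows. For the estrogen-related receptors, partners of Ppargc1a, the search used AAGGTCA as a core site. The E-box of muscle regulators was searched as CAGCTG in each window of the table. For the MEF2 family of muscle factors the letters TAAAAATA were taken from its usual site. The TATA box near the start of some genes was searched as TATAAA on either strand.
Cox7a1, muscle form, chr7:30183921-30184220, plus strand: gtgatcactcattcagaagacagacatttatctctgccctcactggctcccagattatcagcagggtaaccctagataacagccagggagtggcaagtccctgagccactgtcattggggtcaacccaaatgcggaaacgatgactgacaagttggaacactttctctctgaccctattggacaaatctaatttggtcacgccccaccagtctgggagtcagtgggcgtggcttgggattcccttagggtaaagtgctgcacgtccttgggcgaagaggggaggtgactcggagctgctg
Cox8b, muscle form, chr7:140900397-140900696, minus strand: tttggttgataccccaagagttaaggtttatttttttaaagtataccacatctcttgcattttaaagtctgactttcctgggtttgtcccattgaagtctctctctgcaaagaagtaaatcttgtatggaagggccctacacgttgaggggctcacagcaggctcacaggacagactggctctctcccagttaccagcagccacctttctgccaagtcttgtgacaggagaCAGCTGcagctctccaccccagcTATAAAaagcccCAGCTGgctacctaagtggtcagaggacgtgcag
Cox7a2, ubiquitous form, chr9:79759804-79760103, minus strand: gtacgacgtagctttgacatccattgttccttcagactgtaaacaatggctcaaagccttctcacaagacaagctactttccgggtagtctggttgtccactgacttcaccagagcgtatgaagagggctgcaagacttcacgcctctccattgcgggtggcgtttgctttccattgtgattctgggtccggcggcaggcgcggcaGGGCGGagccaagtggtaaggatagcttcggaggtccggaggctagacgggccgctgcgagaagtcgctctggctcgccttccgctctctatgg
Cox8a, ubiquitous form, chr19:7217567-7217866, minus strand: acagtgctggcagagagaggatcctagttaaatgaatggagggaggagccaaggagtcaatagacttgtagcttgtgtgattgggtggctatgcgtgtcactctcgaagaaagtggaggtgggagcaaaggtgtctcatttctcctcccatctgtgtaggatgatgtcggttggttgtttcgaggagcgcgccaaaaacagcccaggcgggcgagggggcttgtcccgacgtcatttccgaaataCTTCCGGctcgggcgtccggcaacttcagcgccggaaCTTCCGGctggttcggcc
Cox6a1, ubiquitous form, chr5:115348909-115349208, minus strand: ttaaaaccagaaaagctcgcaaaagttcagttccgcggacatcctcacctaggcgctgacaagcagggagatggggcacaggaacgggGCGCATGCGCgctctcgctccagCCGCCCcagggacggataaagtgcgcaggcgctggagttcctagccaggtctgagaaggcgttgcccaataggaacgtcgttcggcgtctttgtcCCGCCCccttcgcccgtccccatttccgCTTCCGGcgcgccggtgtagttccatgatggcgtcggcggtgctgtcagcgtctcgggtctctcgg

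The Cox8b window held 2 E-boxes, at bases 232 to 237 and 267 to 272, and a TATA box at bases 255 to 260. None of the 7 motifs was found in the Cox7a1 window. Cox6a1 held 2 overlapping NRF1 matches that share 6 bases within bases 89 to 98, an ETS match at bases 235 to 241 and 2 SP1 matches. Cox8a held 2 ETS matches, at bases 246 to 252 and 283 to 289, and Cox7a2 a single SP1 match. CpG dinucleotides numbered 7 in the Cox7a1 window and 2 in that of Cox8b, against 20 for Cox7a2, 19 for Cox8a and 32 for Cox6a1. The median was 19 over the 35 genes of these complexes and 7 over all 27025 genes with a window. A gene counted as a match if any of its windows held the motif, and the 35 genes have 39 windows. An NRF1 match was found for 7 of the 35 genes (20%), against 3.05% of all genes with a window. An ETS match was found for 10 (28.6%), against 9.93%. The SP1 motif was about as frequent in the 35 (37.1%) as in all genes with a window (38.2%). The E-box was found in 5.71% of the 35 and 18.3% of all, and the MEF2-type site in 0 of the 35 and 3.09% of all. The estrogen-related receptor site was found in 11.4% of the 35 and 5.38% of all, and the TATA box in 8.57% of the 35 and 15.7% of all. A match describes letters, not binding.

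Transcripts of the 45 genes made up 0.246%, 0.221% and 0.738% of all counts in HO 1 to 3, against 0.807%, 0.926% and 1.03% in Control 1 to 3. Every HO library lay below every Control library, with HO 3 close to the Controls. The widest Wilson 95% interval of these shares was 1.02% to 1.03%, in Control 3, and covers counting error only. The median level per gene length, in FPKM (fragments scaled by gene length and library size), of the 9 complex III genes was 45.5, 36.4 and 143 in HO, against 140, 153 and 172 in Control. For the 16 tested complex IV genes it was 49.8, 45.3 and 182.5 FPKM in HO, against 179, 215 and 236 FPKM in Control. For the 17 genes with ATP synthase names it was 44.7, 43.8 and 119 FPKM in HO, against 133, 144 and 165 FPKM in Control. HO 1 and HO 2 were low for all 3 complexes, and the median of HO 3 was below the Controls for ATP synthase alone. The summed FPKM of HO 3 was below every Control for all 3. It was 1355 for complex III, against 1391 to 1764 in Control. For complex IV it was 3069, against 3206 to 4130, and for ATP synthase 3099, against 3292 to 4182.

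**Figure D1:**
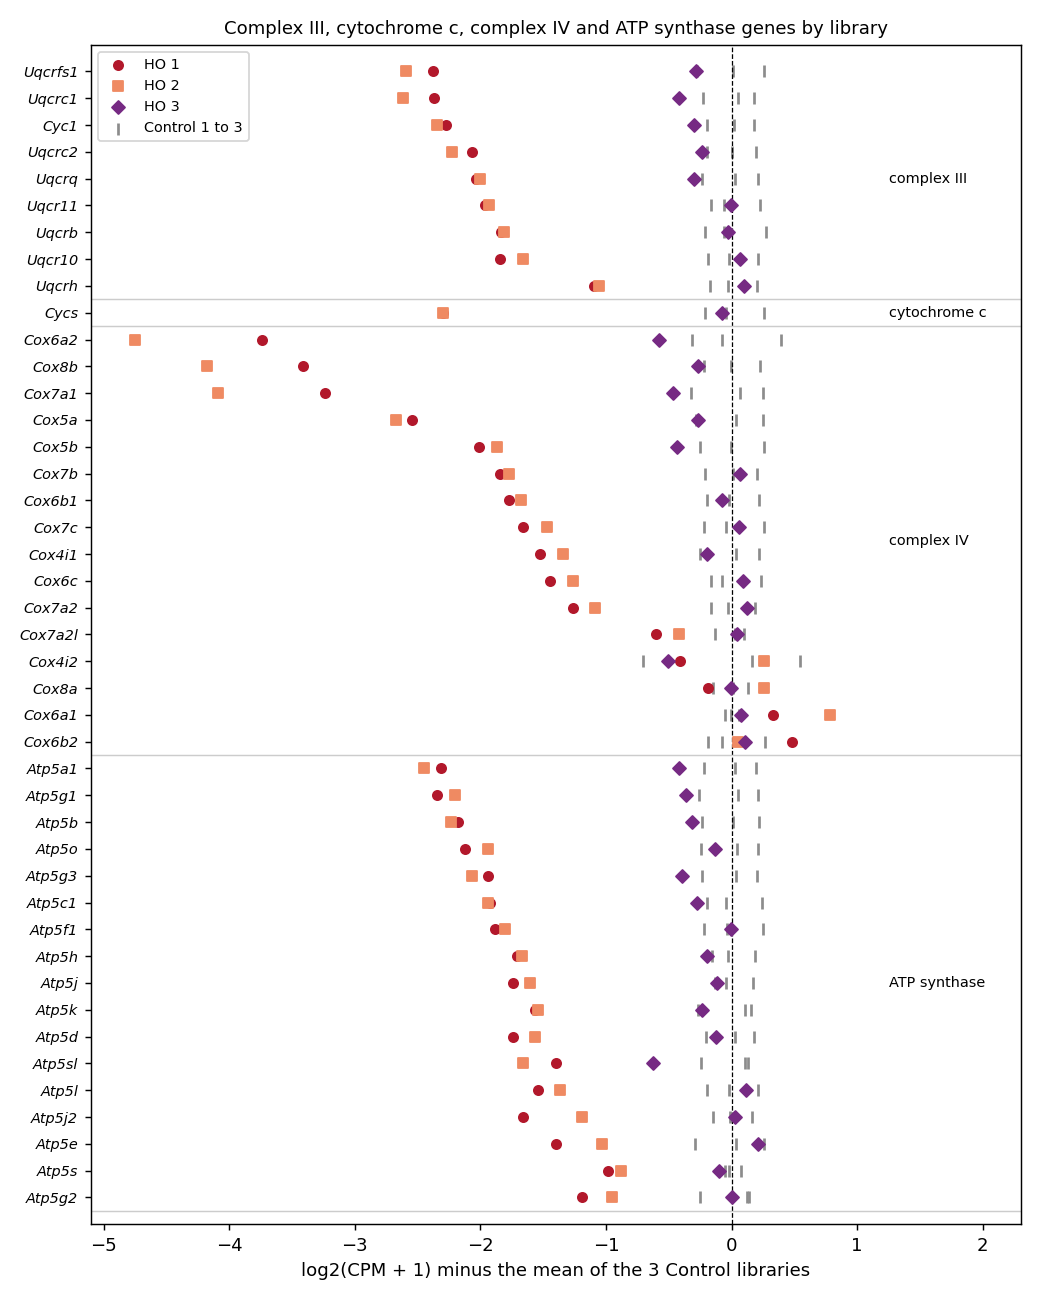
Level of each of the 43 tested genes in HO 1 (circles), HO 2 (squares), HO 3 (diamonds) and Control 1 to 3 (grey bars), as log2(CPM + 1) minus the mean of the 3 Control libraries; genes are grouped by complex. HO 1 and HO 2 lie far to the left for most genes, with medians of -1.83 and -1.68, while HO 3 has a median of -0.12.

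In the comparison of HO with Control over all 6 libraries, 1 of the 43 genes was called lower and 0 higher (edgeR's quasi-likelihood test, Benjamini-Hochberg adjusted p under 0.05 over 14561 genes). The gene called was Atp5sl, which is not a subunit. Over all tested genes, 12.3% were called lower and 20.4% higher. At an unadjusted p under 0.05, 6 of the 43 were lower and 0 higher, against 20.6% and 26.5% of all genes. DESeq2's Wald test called 15 lower and 0 higher, where it called 17.1% and 21.2% of all genes. The fitted log2 fold change was negative for 40 of the 43, and positive for Cox6a1, Cox6b2 and Cox8a; its median was -0.98, against -0.02 over all genes. The CPM levels of 17 genes were lower in every HO library than in every Control library, 1 was higher in every HO library (Cox6a1), and 25 overlapped; over all genes, 26.1% did not overlap in the lower direction and 28.7% in the higher.

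Without HO 3, 39 of the 43 genes were called lower and 1 higher, with a median log2 fold change of -1.79. That fit called 29.7% of all genes lower and 28.5% higher. All 9 complex III genes, Cycs, 12 of 16 complex IV genes and all 17 genes with ATP synthase names were among the 39. Their fitted levels in HO 1 and HO 2 were 0.0514 to 0.699 times those of Control, and the largest adjusted p among the 39 was 0.00883. Cox6a1 was the gene called higher, and Cox4i2, Cox6b2 and Cox8a were not called. With all 6 libraries and a block for the replicate number, 19 genes were called lower and 0 higher, against 17.3% and 21.7% of all genes. The 19 were 6 of complex III, 4 of complex IV and 9 of ATP synthase. Both the block and the removal of HO 3 were chosen from these same data, and what the replicate numbers mark is not given.

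The muscle genes moved with these levels. With the mean level of the 35 muscle genes as a covariate, the median log2 fold change of the 43 genes was -0.19; 34 were negative and 9 positive, and 1 was called lower and 0 higher, against 7.24% and 12.7% of all genes. The covariate itself differed between the groups: of the HO libraries, only HO 3 had a muscle gene share near the Controls, at 17.0%. The fold changes of this fit therefore rest largely on HO 3, where the median of the 43 genes was -0.12 from the Control mean. The fit thus cannot separate muscle level from group. The part of muscle RNA in the differences was not tested.

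**Figure D2:**
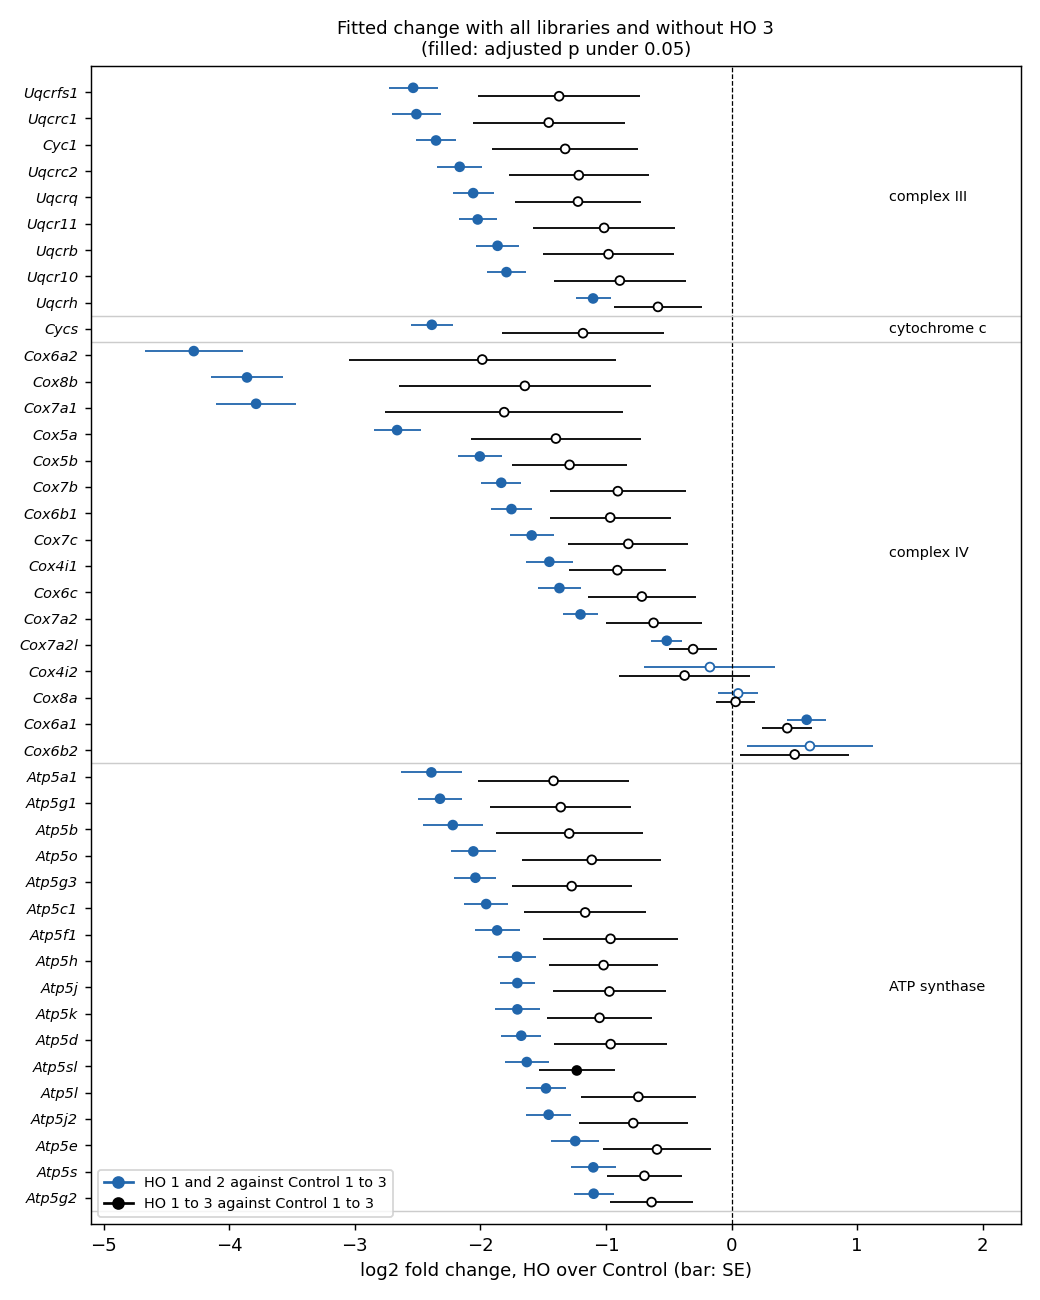
Fitted log2 fold change of HO over Control for the 43 tested genes, with the standard error as a bar, from HO 1 and 2 (blue) and from HO 1 to 3 (black); filled points have an adjusted p under 0.05. With all libraries only Atp5sl is filled, and without HO 3 all are filled except Cox4i2, Cox6b2 and Cox8a.

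In complex III, the median log2 fold change of the 9 genes was -1.22, none was called, and 5 of 9 were without overlap in the lower direction, against 26.1% of all genes. Uqcrc1 encodes one of the core proteins that face the matrix, and had 83.6, 70.4 and 326 CPM in HO, against 371, 451 and 494 CPM in Control. Its log2 fold change was -1.46 ± 0.61 (SE; adjusted p = 0.106) with all libraries, -2.51 ± 0.20 (adjusted p = 5.5e-05) without HO 3, and -1.82 (adjusted p = 0.0436) with the block. All 3 HO libraries were below the Controls, HO 3 by the smallest margin.

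Uqcrq, a small subunit that helps to bind ubiquinone, had 37.1, 38.0 and 126 CPM in HO, against 132, 158 and 179 CPM in Control. Its log2 fold change was -1.22 ± 0.50 (SE; adjusted p = 0.103), -2.06 (adjusted p = 5.5e-05) without HO 3 and -1.47 (adjusted p = 0.038) with the block. Cyc1 encodes cytochrome c1, the haem protein that hands electrons to cytochrome c, and had 32.5, 31.0 and 131 CPM in HO, against 140, 163 and 183 CPM in Control. The log2 fold change of Cyc1 was -1.32 ± 0.58 (SE; adjusted p = 0.12), -2.35 (adjusted p = 3.9e-05) without HO 3 and -1.68 (adjusted p = 0.0446) with the block. Neither gene's groups overlapped.

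Core and catalytic genes lay further below Control than accessory genes in HO 1 and HO 2. The core genes Uqcrc1 and Uqcrc2 and the catalytic genes Cyc1 and Uqcrfs1, which encodes the Rieske iron-sulphur protein, were -2.38 to -2.06 from the Control mean on the log2(CPM + 1) scale in HO 1 and -2.61 to -2.22 in HO 2. The 5 accessory genes were -2.03 to -1.09 in HO 1 and -2.0 to -1.06 in HO 2. The difference between the 2 kinds of subunit was not tested. Uqcrh, the hinge protein at the cytochrome c docking site, lay nearest to Control of the 9 in both libraries.

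Cytochrome c itself, encoded by Cycs, had 14.2, 14.2 and 69.9 CPM in HO, against 63.5, 71.5 and 88.4 CPM in Control. HO 3 lay between Control 1 and Control 2, so the groups overlapped. Its log2 fold change was -1.18 ± 0.65 (SE; adjusted p = 0.191) with all libraries and -2.39 ± 0.17 (adjusted p = 4.3e-05) without HO 3. Transcripts of 11 other annotated genes, Acbd6 among them, match Cycs at 95% identity or more over at least 100 bases. Its counts are therefore uncertain.

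In complex IV, the median log2 fold change of the 16 tested genes was -0.86, none was called, and 4 were without overlap in the lower direction and 1 in the higher, near the shares of 26.1% and 28.7% over all genes. Cox5b, a zinc-binding subunit on the matrix side, had 20.4, 22.7 and 63.0 CPM in HO, against 71.6, 85.3 and 103 CPM in Control. Its groups did not overlap, and its log2 fold change was -1.29 ± 0.45 (SE; adjusted p = 0.0702), -2.0 ± 0.17 (adjusted p = 7.5e-05) without HO 3 and -1.48 (adjusted p = 0.0255) with the block.

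Cox4i1 and Cox5a encode the subunits that join the mitochondrially encoded core first during assembly. Cox4i1 had 117, 134 and 298 CPM in HO, against 286, 348 and 397 CPM in Control, so HO 3 lay within the Controls. Its log2 fold change was -0.91 ± 0.39 (SE; adjusted p = 0.111), -1.45 (adjusted p = 0.000407) without HO 3 and -1.03 (adjusted p = 0.0395) with the block. Cox4i2, the lung form that low oxygen induces, had 1.68, 3.27 and 1.51 CPM in HO, against 4.21, 2.99 and 1.18 CPM in Control. The values of Cox4i2 overlapped widely (log2 fold change -0.37 ± 0.52, SE, adjusted p = 0.588). The call was also absent without HO 3 (-0.17, adjusted p = 0.797).

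Cox7a2l encodes a factor that joins complexes III and IV into supercomplexes. It had 54.3, 61.8 and 85.4 CPM in HO, against 75.6, 84.5 and 89.0 CPM in Control, and was the least changed of the 39 genes called without HO 3 (log2 fold change -0.52, adjusted p = 0.00883). Cox6b2, a testis form, had 1.26, 0.675 and 0.738 CPM in HO, against 0.94, 0.416 and 0.534 CPM in Control, with overlap, and its log2 fold change was 0.50 with all libraries and 0.62 without HO 3 (adjusted p = 0.387 and 0.315). The other small subunits, Cox6b1, Cox6c, Cox7b and Cox7c, had overlapping groups, with fold changes of -0.97 to -0.71 on the log2 scale. Without HO 3 these were -1.75, -1.37, -1.83 and -1.59, all called lower.

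Of the 43 tested genes, the 3 muscle forms of complex IV lay furthest below Control in HO 1 and HO 2. Among their ubiquitous partners, Cox7a2 lay less far below Control, Cox8a on either side of it and Cox6a1 above it. Cox6a2 (chr7:128205435-128206366) had 30.3, 12.5 and 247 FPKM in HO, against 377, 315 and 492 FPKM in Control. Cox7a1 (chr7:30184171-30186030) had 29.5, 13.3 and 190 FPKM in HO, against 227, 295 and 320 FPKM in Control. Cox8b (chr7:140898942-140900446) had 48.1, 23.9 and 390 FPKM in HO, against 434, 499 and 559 FPKM in Control. Every HO library was below every Control library for all 3 genes, and HO 2 was the lowest. On the log2(CPM + 1) scale, the median of the 3 muscle forms was -3.41, -4.18 and -0.47 from the Control mean in HO 1 to 3. For the 35 skeletal muscle genes as a whole it was -3.47, -4.73 and -0.20, so muscle genes in general lay about as far below Control in HO 1 and HO 2.

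The values of their ubiquitous partners differed from pair to pair. Cox6a1 (chr5:115345652-115348958) had 57.2, 70.0 and 41.4 FPKM in HO, against 40.6, 43.4 and 39.7 FPKM in Control. Cox7a2 (chr9:79755241-79771422) had 41.7, 41.8 and 96.5 FPKM in HO, against 85.3, 92.3 and 103 FPKM in Control. Cox8a (chr19:7215158-7217616) had 64.8, 78.8 and 64.3 FPKM in HO, against 62.4, 69.1 and 72.0 FPKM in Control. The groups of Cox8a and Cox7a2 overlapped; those of Cox6a1 overlapped in FPKM but not in CPM, where HO 3 had 23.2 and the highest Control 22.9.

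The fitted log2 fold changes were -1.98 ± 1.06 for Cox6a2 (SE; adjusted p = 0.183), -1.81 ± 0.95 for Cox7a1 (adjusted p = 0.175) and -1.65 ± 1.0 for Cox8b (adjusted p = 0.232). They were 0.44 ± 0.20 for Cox6a1 (SE; adjusted p = 0.124), -0.62 ± 0.38 for Cox7a2 (adjusted p = 0.236) and 0.03 ± 0.16 for Cox8a (adjusted p = 0.883). Without HO 3 they were -4.28, -3.79 and -3.86 for the muscle forms, all called, and 0.60 for Cox6a1 (called), -1.20 for Cox7a2 (called) and 0.05 for Cox8a (not called). With the block Cox6a2 was called (-3.16, adjusted p = 0.0482), and Cox7a1 and Cox8b were not.

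**Figure D3:**
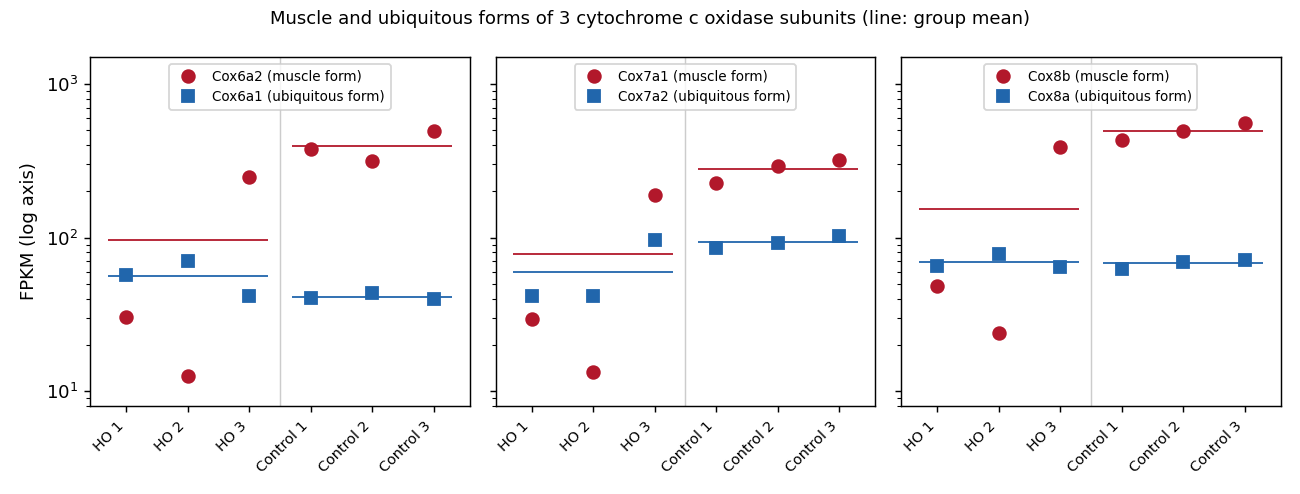
FPKM, on a log axis, of the muscle form (red circles) and the ubiquitous form (blue squares) of 3 complex IV subunits in HO 1 to 3 and Control 1 to 3, with a line at each group mean. In HO 1 and HO 2 the muscle form lies below the ubiquitous form in all 3 pairs, and in HO 3 and the Controls above it.

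Cox6a2 supplied 34.6%, 15.2% and 85.7% of the summed FPKM of its pair in HO, against 90.3%, 87.9% and 92.5% in Control. Cox7a1 supplied 41.4%, 24.1% and 66.4% of its pair in HO, against 72.7%, 76.2% and 75.7% in Control. Cox8b supplied 42.6%, 23.2% and 85.8% of its pair in HO, against 87.4%, 87.8% and 88.6% in Control. Each HO library was below each Control library in all 3 pairs, with HO 3 nearest to them. The log2 ratio of muscle to ubiquitous form in HO minus that in Control was -3.50 for Cox6a, -1.96 for Cox7a and -2.72 for Cox8. Without HO 3 these differences were -4.92, -2.65 and -3.94, and without HO 2 they were -2.40, -1.33 and -1.78. The exact two-sided permutation p with all libraries was 0.1 for each of the 3 ratios, the smallest that 3 against 3 libraries allow. Among HO libraries, these shares followed the order of the muscle gene share, HO 2, HO 1, HO 3; this was not tested.

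The summed level of a pair was lower in every HO library as well. The Cox6a pair summed to 87.5, 82.55 and 289 FPKM in HO, against 417, 358 and 532 FPKM in Control. The Cox7a pair summed to 71.3, 55.0 and 287 FPKM in HO, against 312, 387 and 423 FPKM in Control. The Cox8 pair summed to 113, 103 and 454 FPKM in HO, against 496, 568 and 631 FPKM in Control. In HO 1 and HO 2, most of what remained of each pair was thus the ubiquitous form.

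**Figure D4:**
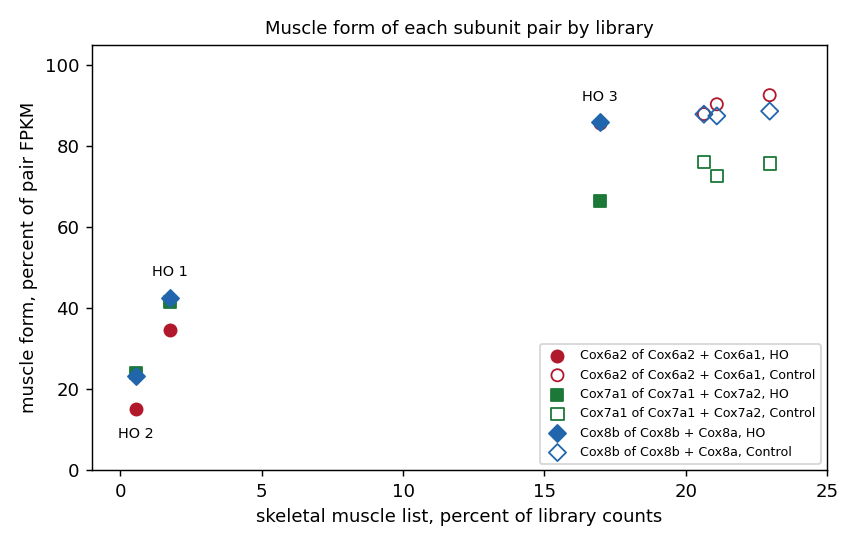
Share of each pair's FPKM supplied by the muscle form (vertical axis, percent) against the share of all counts held by the 35 skeletal muscle genes (horizontal axis, percent), for HO (filled) and Control (open) libraries. HO 1 and HO 2 sit at the lower left, with muscle shares of 1.77% and 0.564%, and HO 3 sits next to the Controls, with 17.0%.

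In ATP synthase, the median log2 fold change of the 17 genes was -1.02, 8 were without overlap in the lower direction, against 26.1% of all genes, and Atp5sl was called. Atp5sl (chr7:25619414-25625550) is named Dmac2 by RefSeq and is not a subunit of the enzyme; its human counterpart takes part in building complex I. It had 10.3, 8.40 and 18.3 CPM in HO, against 24.1, 31.6 and 31.1 CPM in Control (12.3 ± 5.25 and 29.0 ± 4.21, SD, n = 3 each). Its log2 fold change was -1.23 ± 0.30 (SE; edgeR adjusted p = 0.0263). All 3 HO libraries lay below the Controls. Leaving out HO 1, HO 2, Control 1, Control 2 or Control 3 ended the call (adjusted p = 0.0888, 0.053, 0.0558, 0.0897 and 0.082), and leaving out HO 3 kept it (-1.63, adjusted p = 0.000181). With the muscle covariate it was -0.65 (adjusted p = 0.0441). The other non-subunit, Atp5s, had 3.67, 4.02 and 7.62 CPM in HO, against 7.93, 8.75 and 8.09 CPM in Control (log2 fold change -0.69, adjusted p = 0.115; -1.10, adjusted p = 0.00126, without HO 3).

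Among true subunits, Atp5g3 had the smallest p. It is one of 3 genes that encode the same mature c subunit, the protein of the rotating ring, and had 42.3, 38.6 and 126 CPM in HO, against 140, 169 and 190 CPM in Control. Its groups did not overlap, and its log2 fold change was -1.27 ± 0.48 (SE; adjusted p = 0.0821), -2.04 ± 0.17 (adjusted p = 6.0e-05) without HO 3 and -1.49 (adjusted p = 0.0342) with the block.

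Atp5a1 and Atp5b encode the alpha and beta subunits of the catalytic head. Atp5b was the most abundant of the 45 genes by mean FPKM in both groups, with 210, 178 and 665 FPKM in HO, against 759, 889 and 980 FPKM in Control. Atp5a1 had 155, 125 and 502 FPKM in HO, against 622, 727 and 780 FPKM in Control. Both were without overlap, with log2 fold changes of -1.29 and -1.42 (adjusted p = 0.128 and 0.112), and without HO 3 of -2.22 and -2.39 (adjusted p = 0.000179 and 0.000132). In mean FPKM rank, Cox8b was 8th in HO and 3rd in Control, and Cox6a2 was 14th in HO and 6th in Control. Cox7a1 was 20th in HO and 11th in Control. The HO means of these muscle forms rest mostly on HO 3, at 390, 247 and 190 FPKM. In HO 1 they had 48.1, 30.3 and 29.5 FPKM, and in HO 2 23.9, 12.5 and 13.3 FPKM. Cox6c, a small complex IV subunit, was 2nd in HO and 5th in Control.

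By place in the enzyme, both head genes lay further below the Control mean in HO 2 than any other of the 17 genes, at -2.44 and -2.23 on the log2(CPM + 1) scale. The 4 genes of the peripheral stalk, which holds the head still (Atp5f1, Atp5h, Atp5j and Atp5o), lay at -1.94 to -1.61 in that library. The genes of the central stalk, which turns inside the head (Atp5c1, Atp5d and Atp5e), lay at -1.94 to -1.03. The membrane subunits that join 2 enzymes into dimers or stand beside the ring (Atp5j2, Atp5k and Atp5l) lay at -1.54 to -1.19. The c-ring genes (Atp5g1, Atp5g2 and Atp5g3) spread widely, from -2.20 to -0.95. In HO 1 the head genes lay at -2.31 and -2.18, the c-ring genes at -2.34 to -1.19 and the membrane subunits at -1.66 to -1.54, and Atp5g1 lay furthest below Control of the 17. The difference between groups of subunits was not tested.

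Taken alone, HO 1 was below the Control mean for 41 of the 43 genes, 37 of them by more than 1 on the log2(CPM + 1) scale. HO 2 was below it for 39, 36 of them by more than 1. HO 3 was below it for 30, with 0 by more than 1, and its values ran from -0.63 for Atp5sl to 0.21 for Atp5e. Against the Control range, HO 3 was below for 17 genes, above for 1 and within for 25; over all 14561 genes it was below for 5265, above for 5624 and within for 3672. The median for complex III was -2.03, -2.0 and -0.23 in HO 1 to 3, for complex IV -1.59, -1.40 and -0.04, and for ATP synthase -1.74, -1.66 and -0.13. A library alone cannot be tested.

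HO 3 also differed from the Controls in its kind of muscle RNA. Genes of slow and oxidative fibres, such as Myl3 and Atp2a2, summed to 2319, 1193 and 11088 CPM in HO, against 20472, 21627 and 24529 CPM in Control. Genes of fast glycolytic fibres, such as Tnnc2, summed to 3336, 942 and 57827 CPM in HO, against 29144, 31586 and 45652 CPM in Control. HO 3 was thus below all Controls in the first sum and above them in the second. The median of the 10 fast-fibre genes in HO 3 was 0.74 above the Control mean on the log2(CPM + 1) scale. Not every one followed the sum: Tnnc2 had 708 CPM in HO 3, within the Controls at 668, 621 and 922 CPM. The part of these muscle differences in the respiratory chain levels of HO 3 was not tested.

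Genes that build complex IV had a median log2 fold change of -0.45, against -0.86 for its subunits. Of 26 tested assembly genes, 3 were called lower, 0 higher and 23 not; without HO 3, 17 were called lower, and with the block 8. All genes were called lower in 12.3%, 29.7% and 17.3% in these fits, so the first count is near the share over all genes. Cox19, which handles copper for complex IV, had 7.45, 9.38 and 15.4 CPM in HO, against 21.7, 23.6 and 26.2 CPM in Control (log2 fold change -1.15 ± 0.27, SE; adjusted p = 0.0238; -1.50 without HO 3, adjusted p = 0.000178). Lrpprc, which stabilises mitochondrial messenger RNAs, was lower as well (-1.37 ± 0.39, SE; adjusted p = 0.0403; -1.96 without HO 3, adjusted p = 5.9e-05), and the remaining call was Cox20. Leaving out any library other than HO 3 gave 0 calls in this list. Of 6 complex III assembly genes 0 were called, with a median of -0.57, 5 without HO 3 and 2 with the block. Bcs1l, which inserts the Rieske protein, had a log2 fold change of -0.83 ± 0.28 (SE; adjusted p = 0.0596), and Ttc19, needed after that step, -0.32 ± 0.13 (SE; adjusted p = 0.107). Without HO 3 they were -1.19 (adjusted p = 0.000507) and -0.40 (adjusted p = 0.0278), and with the block Bcs1l was also called (-0.89, adjusted p = 0.0319).

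Of 7 genes that build or inhibit ATP synthase, 1 fell and 1 rose, against 12.3% and 20.4% of all genes. Without HO 3 it was 6 lower and 1 higher, against 29.7% and 28.5%, and with the block 2 lower and 1 higher, against 17.3% and 21.7%. Atpif1, the inhibitor that stops the enzyme from running backwards, had 19.2, 26.6 and 20.6 CPM in HO, against 11.7, 10.3 and 10.7 CPM in Control. Every HO library was above every Control library, and the log2 fold change was 1.02 ± 0.16 (SE; adjusted p = 0.00764). Atpif1 was called higher without each library in turn (0.87 to 1.12), with the block (1.01, adjusted p = 0.0194) and with the muscle covariate (0.85, adjusted p = 0.0165). Atpaf1, a chaperone that assembles the catalytic head, had 5.70, 5.06 and 10.5 CPM in HO, against 15.1, 14.6 and 18.1 CPM in Control (log2 fold change -1.17 ± 0.30, SE; adjusted p = 0.0283). Its call ended when any library other than HO 3 was left out (adjusted p = 0.0614 to 0.0915); without HO 3 it was -1.56 (adjusted p = 0.000185).

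Of 8 tested genes that exchange nucleotides and phosphate across the membrane, 0 were called, with a median of -1.02. Without HO 3, 6 were called lower, and with the block 1. Of all genes, 12.3% were called lower with all libraries, 29.7% without HO 3 and 17.3% with the block. Slc25a3, the phosphate carrier, had a log2 fold change of -1.29 ± 0.42 (SE; adjusted p = 0.0581; 0.0305 with the block), and Ckmt2, the creatine kinase of muscle mitochondria, -2.18 ± 1.06 (SE; adjusted p = 0.15). Without HO 3 they were -1.90 and -4.35 (adjusted p = 0.000146 and 0.000157), and with the muscle covariate Ckmt2 was called (-0.73, adjusted p = 0.0232). Of 12 genes that stand for mitochondrial mass, 1 was called lower, with a median of -0.62; 9 were called without HO 3 and 6 with the block. This was Hspa9, the matrix chaperone (-1.19 ± 0.35, SE; adjusted p = 0.0441), which lost its call when any library other than HO 3 was left out. Tomm40, the import pore, had -0.46 ± 0.15 (SE; adjusted p = 0.0513; 0.0327 with the block). Without HO 3 they were -1.67 and -0.56 (adjusted p = 0.00015 and 0.0104).

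Of 17 regulators of mitochondrial biogenesis, 4 were called lower (Polrmt, Ppargc1a, Ppara and Esrrb) and 0 higher, with a median of -0.54. Without HO 3, 11 were called lower, and with the block 7. The shares of all genes called lower in these fits were 12.3%, 29.7% and 17.3%. Ppargc1a, a coactivator that raises respiratory chain genes in muscle and brown fat, had 8.57, 4.15 and 27.8 CPM in HO, against 82.3, 143 and 125 CPM in Control. All HO libraries were far below the Controls, HO 3 included, and the log2 fold change was -3.11 ± 0.70 (SE; adjusted p = 0.0204), -4.20 (adjusted p = 8.3e-05) without HO 3 and -1.99 (adjusted p = 0.00345) with the muscle covariate. Polrmt, the mitochondrial RNA polymerase, changed by -0.83 ± 0.16 (SE; adjusted p = 0.0137; -1.0 without HO 3, adjusted p = 0.000403). Both calls ended without HO 1, Control 2 or Control 3 (adjusted p = 0.0518 to 0.0732), and the list then had 0 calls; without Control 1 it had 2.

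Other cell types moved with the groups too. Of the 35 muscle genes, 0 were called with all libraries and 35 were called lower without HO 3. DESeq2's Wald test called 12 of them lower with all libraries. Of all genes, 12.3% were called lower and 20.4% higher with all libraries. The share called lower was 29.7% without HO 3, 17.3% with the block and 17.1% under DESeq2's Wald test. Of the marker lists, macrophage genes rose (11 of 11), cartilage genes rose (8 of 8 tested), tendon genes rose (6 of 10) and adipocyte genes fell (8 of 8). Of 4 tested brown adipocyte genes, 2 were called lower and 1 higher; Cox8b and Ppargc1a are themselves in that list, and Elovl3 was at 0 in every library. Of 6 endothelial genes 2 were lower with all libraries, 6 without HO 3 and 1 with the block. Of 5 tested erythroid genes 0 were called with all libraries, while 5 were lower without HO 3, 5 with the block and 4 under DESeq2's Wald test. The part of these cell types in the levels of the 43 genes was not tested.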

How the data were processed

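The authors deposited a table of read counts per gene, whole numbers and not normalized, and a table of FPKM. The deposited FPKM equal these counts divided by gene length and library total: the implied length was whole, within 0.01 bases, in 100% of 15164 genes counted in every library. Per the labels' protocols, RNA isolation used mirVana and library preparation a strand-keeping TruSeq kit that removes ribosomal RNA (Ribo-Zero Gold); Trimmomatic, HISAT2 and GRCm38.p6 are named in the submitters' processing notes. The counting program and its strand setting are not given in the sources used here.

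The 45 genes and all gene lists were chosen with earlier results of these data known. Counts were analysed with edgeR 4.0.16 in R 4.3.3 (filterByExpr, which left 14561 genes, TMM scaling, quasi-likelihood test, Benjamini-Hochberg adjustment over all tested genes, threshold 0.05). Between libraries, edgeR's common coefficient of variation was 0.296, and 1 count was 0.0319 to 0.0418 CPM. The SE of a log2 fold change is its size over the root of F. Isoform ratios used log2(FPKM + 0.1) and exact permutation tests over libraries (scipy 1.17.1). The fit was tested on simulated data, where it called few of the genes with a 2-fold change and most of those with a larger one. A gene without a call may therefore still differ by about 2-fold. Alternatives used DESeq2 1.42.0 and limma 3.58.1. The comparison of libraries with the same number gave correlations of their deviations from group means of 0.259, 0.130 and 0.409, all above 0.1, so the numbers in the labels were taken to pair them. This rests on the data alone, since the labels do not say what a number marks. HO 2 correlated more with Control 1 (0.244) than with Control 2 (0.130). With HO 1 and Control 2 at 0.115, exchanging numbers 1 and 2 would also leave all correlations above 0.1. The rule thus cannot tell these pairings apart, and the block was chosen from the data it was fitted to. The chi-square per gene between the closest 2 libraries, Control 1 and 2, was 13.4, so each library was counted separately.

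Values were given in every library for the 2 genes of complex III, complex IV and ATP synthase with the smallest p, Cyc1, Cycs, the isoform pairs and every gene called. Of each supporting list, the 2 genes with the smallest p were named, with the first in the other direction where calls went both ways. Cox7a2l, Cox6b2, Uqcrh, Atp5s, Atp5a1, Atp5b, Cox6c and Cox20, Ppara and Esrrb were named after their values were seen, and for the marker lists only counts and 3 example genes are given. By BLAST 2.17.0 against GENCODE M21, 16 of the 45 genes match a transcript of another gene, none of them in the 3 isoform pairs. A match needed at least 95% identity over 100 bases and can be only part of a gene. Exons of 2 of the 45 genes overlap another gene on the same strand and of 12 on the other strand, among them Cox6a2 and Itgad. The counts of all these genes are uncertain.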

Additional observations from a re-analysis of the deposited data

How the results depend on the processing

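The count of genes called lower, 1 with all libraries, was 15 under DESeq2's Wald test, 2 under limma-voom, 9 and 8 under limma on log2(FPKM + 1) and log2(FPKM + 0.1), 2 under limma on log2(FPKM + 1) with no filter and 19 with the replicate block; of all genes, these called 17.1%, 15.0%, 14.8%, 14.6%, 10.5% and 17.3% lower. It ran from 0 to 39 when each library was left out in turn, and the count called higher from 0 to 1; both upper values came without HO 3. The median log2 fold change stayed negative under all alternatives, from -1.79 without HO 3 to -0.19 with the muscle covariate, and was -0.69 without HO 1 and -0.74 without HO 2. The 3 isoform ratios kept their sign under every alternative, with ranges when a library was left out of -4.92 to -2.40 for Cox6a, -2.65 to -1.33 for Cox7a and -3.94 to -1.78 for Cox8; pairing by number allows no exact p below 0.25, which each ratio gave. With the muscle covariate, 8 genes changed sign: Uqcrh (0.064), Cox6c (0.021), Cox7a2 (0.060), Cox7a2l (0.00057), Cox7b (0.0011), Atp5e (0.12), Atp5l (0.045) and Cox8a (-0.064). So did Cox4i2 (0.040) and Cox8a (-0.044) without Control 1, and Cox8a (-0.10) without HO 2. None of these 11 values passed the threshold. With each library left out in turn, Cox4i2 ran from -0.80 to 0.040 and Cox8a from -0.10 to 0.14. The cause of these changes was not tested. The same alternatives for the supporting lists were added after the data were seen. The precision is set by 3 libraries per group with HO 3 apart from HO 1 and HO 2; in depth, Cycs had at least 422 counts in each library, while Cox4i2 and Cox6b2 had as few as 31 and 11.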

Other observations

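The 3 genes of the c subunit of ATP synthase, which yield the same mature protein, contributed to their summed FPKM in unequal shares; these shares were chosen after their values were seen. Atp5g2 supplied 37.6%, 42.1% and 29.5% in HO, against 24.2%, 25.3% and 23.4% in Control. Atp5g1 supplied 21.6%, 22.6% and 29.5% in HO, against 31.1%, 31.2% and 31.8% in Control. Atp5g3 supplied 40.8%, 35.3% and 41.0% in HO, against 44.7%, 43.5% and 44.8% in Control. For each of the 3 genes the HO and Control shares were apart, and HO 3 was the HO library nearest to Control for each of them. The exact two-sided permutation p was 0.1 for each share, the smallest that 3 against 3 libraries allow. Any full separation gives this value, so it adds nothing to the shares themselves. The 3 shares are parts of the same sum and not separate results. Parts of Atp5g1 and Atp5g2 match transcripts of other annotated genes closely, so these shares are uncertain.

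Among the 40 tested genes other than the 3 muscle forms, longer genes tended to lie further below Control in each HO library. Genes of higher Control level did so in HO 1 and HO 2 but not in HO 3. Spearman's rho between gene length and the difference from the Control mean was -0.30 in HO 1, -0.37 in HO 2 and -0.57 in HO 3, against -0.009, -0.087 and -0.21 over all 14561 genes. With the muscle forms included (43 genes) it was weaker, at -0.12, -0.18 and -0.41. With the mean Control FPKM in place of length, rho over the 40 genes was -0.46, -0.44 and -0.033, against -0.26, -0.19 and -0.079 over all genes. The Control level also enters the difference it is set against, so part of a negative rho is built in. These values are across genes of the same libraries, which are not independent, and describe these libraries alone.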
